A study of Caenorhabditis elegans with 54 samples.

Results

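The 10 mRNAs nos-2, pal-1, glp-1, mex-3, pos-1, spn-4, oma-1, oma-2, puf-5 and puf-6 are germline messages of the nematode Caenorhabditis elegans whose translation is known to be regulated through their 3′ untranslated regions (3′ UTRs). They were taken as a named list and matched by symbol to the gene identifiers of the deposited tables. All 10 were listed in all 9 tables, out of 20728 genes listed in any table, and all 10 passed the filter on low values in every comparison. Each ribosomal fraction or IP was set against the total RNA of the same experiment, and the resulting ratios were then compared between fractions.

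In the WBcel235 annotation the 10 genes are protein coding and lie on 5 chromosomes. The Nanos gene nos-2 (WBGene00003784) spans chromosome II:7065618-7067051 (plus strand) and pal-1 (WBGene00003912) spans chromosome III:4804688-4809576 (minus strand). The Notch gene glp-1 (WBGene00001609) spans chromosome III:9092241-9099698 (plus strand), and mex-3 (WBGene00003229) spans chromosome I:127285-134270 (plus strand). On chromosome V lie pos-1 (WBGene00004078) at V:8414086-8415254 (plus strand), spn-4 (WBGene00004984) at V:6783187-6784903 (minus strand) and oma-2 (WBGene00003865) at V:8029439-8031214 (plus strand). Its paralogue oma-1 (WBGene00003864) spans chromosome IV:8888976-8890999 (plus strand). The Pumilio genes puf-5 (WBGene00004241) and puf-6 (WBGene00004242) span chromosome II:8575541-8577787 (plus strand) and chromosome II:13039792-13043445 (minus strand). Annotated 3′ UTRs ran from 294 bases in oma-2 to 688 bases in the longest isoform of mex-3.

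As background, the hermaphrodite germline and early embryo control many genes after transcription. In the germline, mRNAs are held untranslated by RNA-binding proteins at their 3′ UTRs. Such proteins include the STAR protein GLD-1, the Pumilio proteins FBF-1 and FBF-2, and the oocyte proteins OMA-1, OMA-2 and LIN-41. Many mRNAs stored in oocytes are used at a set stage or in a set cell of the embryo. NOS-2 protein acts in primordial germ cells, the Caudal homologue PAL-1 specifies posterior fates, and GLP-1 is a Notch receptor of germline stem cells and of anterior blastomeres. MEX-3 (a KH-domain protein that represses pal-1), POS-1 (a zinc-finger protein) and SPN-4 (an RRM protein) are themselves regulators of maternal mRNAs. OMA-1 and OMA-2 are redundant zinc-finger proteins of oocyte maturation, and PUF-5 and PUF-6 act in oocyte formation.

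RNA was sequenced from day 1 adults grown at 20 °C in 9 experiments, each with 3 libraries of a fraction and 3 of total RNA. The gradient libraries, fractions and total RNA alike, are labelled with 1 mM cycloheximide, 12000 worms per replicate and a sucrose gradient of 15 to 60%. For the IP experiments none of these is given. An effect of this treatment cannot be told apart from other differences between gradient and IP experiments. Wild-type polysomes (polysome fractions of a sucrose gradient) came from strain Bristol N2. Strain MSD470, whose endogenous rpl-22 carries a flag tag (rpl-22(wbm58)), gave the tagged polysomes, the pooled fractions (60S, 80S and polysomes of a gradient) and the ubiquitous IP (ribosomes immunoprecipitated from all tissues). The other IPs used strains with flag-tagged rpl-22 under a promoter of narrower activity. These were eft-3 for the soma IP (WBM1364, wbmIs119), nep-17 for the intestine IP (WBM1470, wbmIs131), myo-3 for the muscle IP (WBM1339, wbmIs118) and rab-3 for the neurons A IP (MSD473, wbmls99) and the neurons B IP (WBM1471, wbmIs133). The promoter sets which cells make the tagged ribosome, and an IP can still hold RNA of other cells. Whether replicates came from separate cultures is not stated in the labels, and the spread behind each p-value may be technical. The gradient animals were gravid, so their total RNA holds RNA of embryos as well as of the germline, and fewer cells of a type and less RNA per cell cannot be told apart.

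Estimated depth ran from 7.0 to 78.8 (in 1e6 reads), with a median library of 33.0. The authors scaled each table on its own, so levels are compared only within a table. Defining markers were higher in the matching IP for 8 of 8 intestine, 7 of 7 muscle and, in each of both neuronal IPs, 8 of 8 neuronal genes. Of all genes, 17.8% were higher in the intestine IP, 23.1% in the muscle IP, 15.3% in the neurons A IP and 38.7% in the neurons B IP. In the neurons B IP 4 of 8 intestine markers were also higher and none lower, where 38.7% of all genes were higher, and they summed to between 3.81 and 5.53% of the library, against 2.43 to 2.89% in neurons B total RNA. In the soma IP 5 of 6 epidermal, 4 of 8 intestinal, 4 of 7 muscle and 5 of 8 neuronal markers were higher and 1 muscle marker was lower, where 25.1% of all genes were higher. The 11 germline markers were all lower in the soma IP, where 32.7% of all genes were lower. They summed to between 0.0940 and 0.180% of the library there, against 0.517 to 0.919% in soma total RNA, and none was at 0 in every library. In the ubiquitous IP they summed to between 0.297 and 0.367%, against 0.346 to 0.580% in ubiquitous IP total RNA. Tagged polysomes replicate 1 stood below the other tagged polysome libraries for all 10 mRNAs, and neurons A IP replicate 3 listed 7896 genes at 0. The values without tagged polysomes replicate 1 and without neurons A IP replicate 3 stand beside the ratios of those fractions.

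Levels of the 10 mRNAs in total RNA differed among themselves. Per kilobase of the longest transcript, the highest level in wild-type total RNA was that of pos-1, 24768 ± 3152 normalized counts per kb (mean ± SD, n = 3), and spn-4 followed at 24322 ± 2461, within the spread of pos-1. Lower levels per kb were found for puf-5 (16953 ± 2189), oma-2 (12416 ± 1797), mex-3 (9077 ± 863) and oma-1 (5813 ± 582). The lowest levels were those of nos-2 (4791 ± 607), puf-6 (4644 ± 502), glp-1 (3494 ± 337) and pal-1 (3461 ± 322), and here glp-1 and pal-1 lay within one another's spread, as did nos-2 and puf-6. In wild-type polysomes pos-1 again had the highest level per kb (7048 ± 759), and puf-5 at 6624 ± 614 and oma-2 at 6210.1 ± 492 stood above spn-4 at 3862 ± 794. Together the 10 mRNAs made up 0.153 ± 0.0262% of the summed normalized counts in wild-type polysomes and 0.604 ± 0.0292% in wild-type total RNA (SD, n = 3 each).

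Polysomes are mRNAs carrying several ribosomes, and the wild-type gradient asks how much of each message sits on them without any tag. All 10 mRNAs were lower in wild-type polysomes than in wild-type total RNA (10 of 10, limma with Benjamini-Hochberg adjustment over all genes tested, threshold 0.05), where 33.9% of all genes tested were lower. Their median log2 ratio was -1.53, beside a median of 0.02 over all genes. Every polysome library lay below every total RNA library for each of the 10, a pattern found for 35.9% of genes. The span among the 10 was wide, from -3.14 for nos-2 to -0.99 for oma-2.

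The 3 mRNAs with the lowest wild-type polysome ratios were nos-2, pal-1 and spn-4. The Nanos message nos-2 had 606, 771 and 648 normalized counts in wild-type polysomes, against 5165, 6018 and 6667 in wild-type total RNA (log2 -3.14, SE 0.13, adjusted p = 1.58e-09). The Caudal message pal-1 had 672, 761 and 776, against 4491, 5204 and 5370.2 in total RNA (log2 -2.77, SE 0.12). The RRM gene spn-4 had 4746, 5747 and 7152, against 32973, 37802 and 40354 in total RNA (log2 -2.67, SE 0.15). In each of these the highest polysome library was well under the lowest total RNA library. At the other end stood glp-1 and oma-2, which differed least. The Notch message glp-1 had 6023, 7213 and 7459.7 normalized counts in wild-type polysomes, against 13477, 15585 and 16278 in total RNA (log2 -1.13, SE 0.13). The zinc-finger message oma-2 had 9014, 10459 and 9329, against 16327, 19383 and 21874 in total RNA (log2 -0.99, SE 0.14). Their libraries did not overlap either. Intermediate log2 ratios were found for the embryonic regulators pos-1 (-1.81) and mex-3 (-1.34) and for the oocyte genes puf-6 (-1.70), puf-5 (-1.35) and oma-1 (-1.29), with SE from 0.13 to 0.14. All 10 calls held when each library was left out in turn. In the same fraction 7 of the 11 germline markers were lower and 2 higher, and the list summed to between 0.599 and 0.694% of the library, against 1.38 to 1.53% in wild-type total RNA. Somatic markers were higher and none lower, with 8 of 8 for intestine (median log2 ratio 1.05), 7 of 7 for body wall muscle (1.00), 7 of 8 for neurons (0.80) and 5 of 6 for epidermis (1.13), where 33.6% of all genes were higher. The part of these markers in the ratios of the 10 was not tested.

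**Figure D1:**
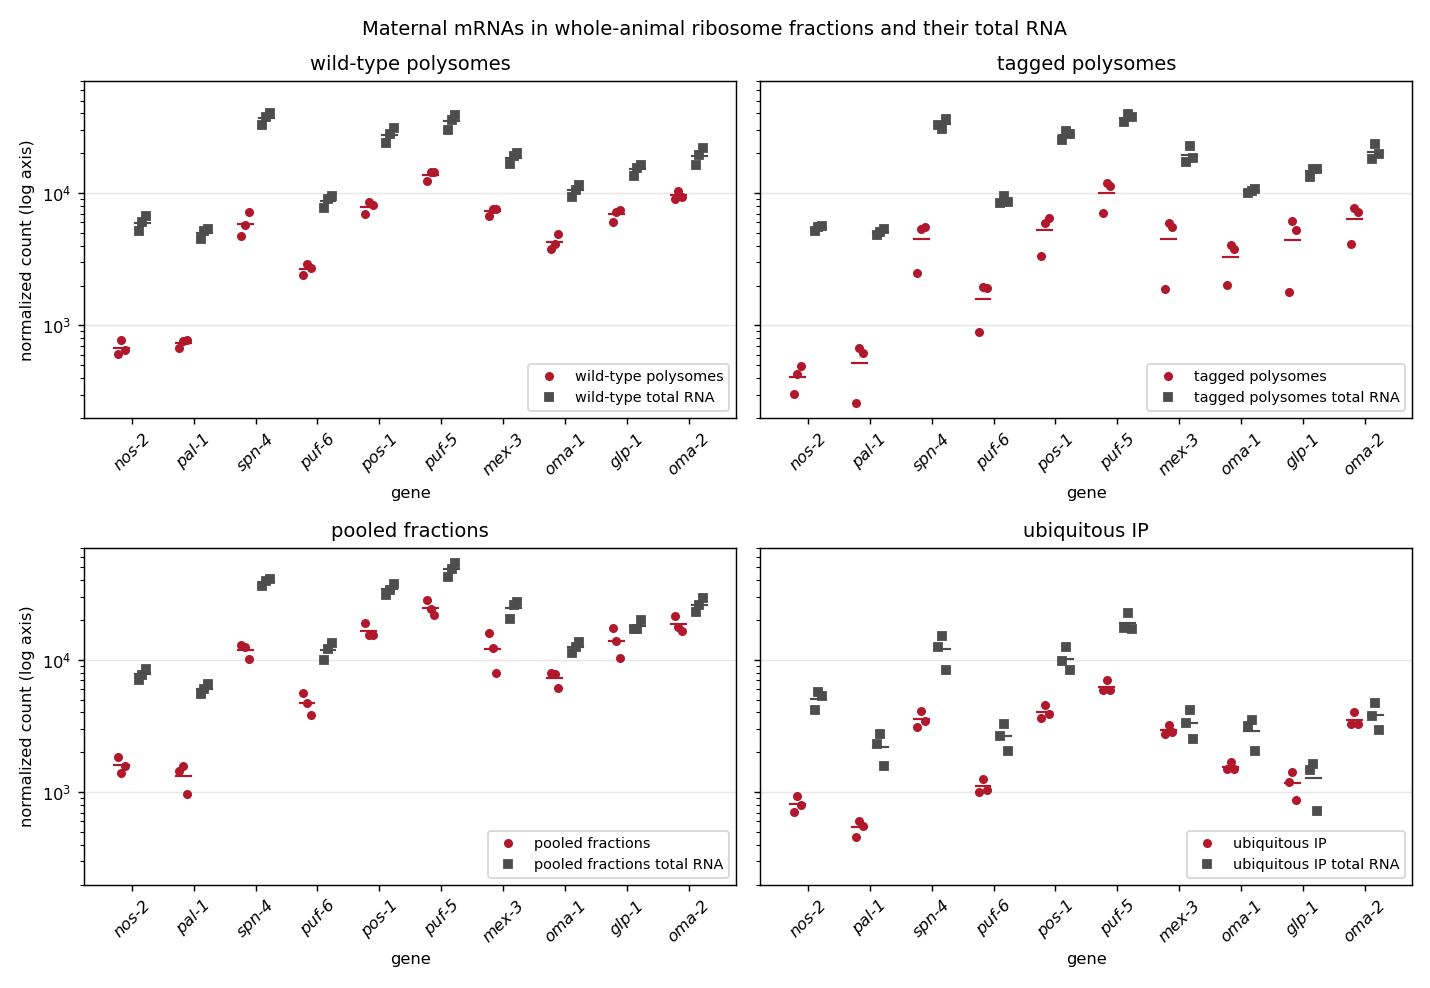
Normalized count (log axis) of each of the 10 mRNAs in the 4 fractions taken from all tissues and in their total RNA; each point is 1 library (n = 3 per group) and short lines are means. In wild-type polysomes and tagged polysomes the fraction libraries lie below the total RNA libraries for all 10, and in the ubiquitous IP glp-1, mex-3 and oma-2 overlap with total RNA.

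In tagged polysomes, from the strain with the tagged endogenous rpl-22, the same direction was seen for all 10, and all 10 were called lower, against 30.3% of all genes tested (28.4% were higher). Their median log2 ratio was -2.36, beside 0.01 over all genes, and every library of the fraction lay below every total RNA library for all 10, against 35.3% of genes. The message nos-2 had 301, 429.7 and 498 normalized counts in tagged polysomes, against 5169.9, 5533 and 5688 in tagged polysomes total RNA (log2 -3.77, SE 0.21, adjusted p = 5.17e-05). For pal-1 the values were 259, 678 and 617, against 4785, 5055 and 5338 in total RNA (log2 -3.40, SE 0.33). In both the first library was the lowest. The least changed were oma-1 (log2 -1.73) and oma-2 (-1.73). Without tagged polysomes replicate 1 all 10 mRNAs were still called lower, at a median of -1.95 and from -3.56 for nos-2 to -1.36 for glp-1. Of the germline markers 8 of 11 were lower and none higher, with a sum of 0.321 to 0.623% of the library in tagged polysomes, against 1.48 to 1.60% in their total RNA. Higher were 6 of 8 intestine, 2 of 7 muscle, 4 of 8 neuronal and 3 of 6 epidermal markers, with none lower, and the part of these markers in the ratios was not tested.

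The wild-type and tagged polysome ratios were compared by an interaction term over their 12 libraries. No gene in the whole table passed the threshold in limma (0 of 14372, 0% in either direction, with 681 at an unadjusted p under 0.05), and so none of the 10 did, although 3 of them had an unadjusted p under 0.05. All 10 differences were positive, from 0.30 for spn-4 to 0.94 for mex-3. The 95% intervals were wide: 0.09 to 1.17 for nos-2 and -0.04 to 1.92 for mex-3. Without tagged polysomes replicate 1 the differences ran from -0.08 for spn-4 to 0.48 for puf-6, with a median of 0.33. A missing call here does not show that the ratios in both kinds of polysomes were alike.

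The pooled fractions add 60S and 80S particles to the polysomes, so an mRNA with a single ribosome is kept. Whether mRNA free of ribosomes is also in the 60S part of the pool was not measured. Here 9 of the 10 mRNAs were called lower, against 23.1% of all genes (20.6% were higher), with a median log2 ratio of -1.06 beside 0.00 over all genes. The libraries of 9 were fully below total RNA, against 27.2% of genes. The message nos-2 had 1836, 1388 and 1566 normalized counts in pooled fractions, against 6989, 7706 and 8558 in pooled fractions total RNA (log2 -2.28, SE 0.15, adjusted p = 3.84e-07), and pal-1 was close to it (log2 -2.20). The message glp-1 was the one not called, at 17379, 13981 and 10377 in pooled fractions, against 17148, 17077 and 19918 in the total RNA libraries (log2 -0.40, SE 0.19, adjusted p = 0.095). Its highest fraction library overlapped with total RNA, and without pooled fractions replicate 1 it was called (adjusted p = 0.0181). The oma-2 call (log2 -0.49, adjusted p = 0.0295) was lost without any 1 of pooled fractions replicates 2 and 3 or total RNA replicates 2 and 3, at adjusted p from 0.0606 to 0.146. Germline markers summed to between 1.04 and 1.38% of the library in pooled fractions, against 1.64 to 1.81% in their total RNA, with 5 of 11 lower and none higher. Of the somatic markers 3 of 8 for intestine, 2 of 7 for muscle, 2 of 8 for neurons and 1 of 6 for epidermis were higher and none lower, and their part was not tested.

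Of the 9 experiments, the ubiquitous IP spread the 10 mRNAs over the widest range, 2.55 log2 units. Of them 7 were called lower, against 20.4% of all genes, and the same 7 had every IP library below every total RNA library, against 26.1% of genes. The median log2 ratio was -1.29, beside 0.01 over all genes. The message nos-2 had 712, 937 and 803 normalized counts in the ubiquitous IP, against 4173, 5663 and 5344 in ubiquitous IP total RNA (log2 -2.62, SE 0.17, adjusted p = 8.21e-06). The next lowest log2 ratios were those of pal-1 (-2.0), spn-4 (-1.73) and puf-5 (-1.60), followed by pos-1 (-1.32), puf-6 (-1.26) and oma-1 (-0.87). Of the germline markers 7 of 11 were lower and 1 higher, where 16.9% of all genes were higher. For intestine 2 of 8 markers were lower and 2 higher, for muscle 3 of 7 lower and 1 higher, and none of the neuronal or epidermal markers was called. The part of these markers in the ratios was not tested.

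The messages glp-1, oma-2 and mex-3 overlapped with their total RNA in the ubiquitous IP. The message glp-1 had 1201, 1420.4 and 867 normalized counts in the ubiquitous IP, against 1464, 1635 and 721 in total RNA (log2 -0.07, 95% interval -0.73 to 0.58). For oma-2 the counts were 3263, 4059 and 3277, against 3766, 4704 and 2939 in total RNA (log2 -0.09, 95% interval -0.51 to 0.33). For mex-3 they were 2728, 3210.4 and 2856, against 3305, 4147 and 2534 in total RNA (log2 -0.16, 95% interval -0.57 to 0.26). In all 3 the lowest total RNA library was replicate 3, and without it glp-1 (log2 -0.44, adjusted p = 0.0202) and mex-3 (log2 -0.34, adjusted p = 0.0212) were called lower. When libraries were instead scaled to equal sums, which raised the median of all genes by 0.25, these 3 log2 ratios turned positive (0.17 for glp-1, 0.16 for oma-2 and 0.09 for mex-3), and the oma-1 call was lost (adjusted p = 0.197).

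Averaged over the 4 fractions taken from all tissues, the log2 ratios ran in the order nos-2 (-2.95), pal-1 (-2.59), spn-4 (-2.27), puf-6 (-1.71), pos-1 (-1.65), puf-5 (-1.46), mex-3 (-1.21), oma-1 (-1.17), glp-1 (-0.88) and oma-2 (-0.83). The ratio of one mRNA to another inside a library does not depend on how the library was scaled, so pairs were compared by the difference of their log2 ratios. This difference had the same sign in all 4 experiments for 35 of the 45 pairs, and for 26 pairs the ratio of one mRNA to the other separated fraction libraries fully from total RNA libraries in all 4. Between neighbours in this order, spn-4 and puf-6 were apart in 4 of 4 experiments, and pal-1 and spn-4 in 3. The messages nos-2 and pal-1 were apart in 2, with nos-2 lower in all 4. The pairs puf-6 with pos-1, puf-5 with mex-3, and glp-1 with oma-2 did not keep their sign in more than 2 of the 4 experiments, and glp-1 and oma-2 were apart in none. The order at the lower end (nos-2, pal-1, spn-4) was thus the same in all 4 experiments, and further up neighbours changed places between experiments. Without tagged polysomes replicate 1, an alternative chosen after seeing the data, the first 6 places were the same at -2.90 for nos-2, -2.48 for pal-1 and -2.18 for spn-4. Then oma-1 (-1.09) stood before mex-3 (-1.08), and oma-2 (-0.76) before glp-1 (-0.74). The pairs with the same sign in all 4 experiments then numbered 37, and those fully apart in all 4 numbered 29.

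The members of each paralogue pair could be compared in the same way, with the limit that reads of close copies, such as puf-6 and its close relative puf-7, can be shared between them by the counting. The log2 ratio of oma-1 minus that of oma-2 was -0.30 in wild-type polysomes, -0.29 in pooled fractions and -0.78 in the ubiquitous IP. In tagged polysomes it was 0.00, and libraries lay apart in 2 of the 4 experiments. The log2 ratio of puf-5 lay above that of puf-6 in wild-type polysomes (difference 0.35), tagged polysomes (0.64) and pooled fractions (0.36). In the ubiquitous IP the sign was turned (difference -0.34), and libraries lay apart in all 4. Both puf genes were called lower in each of these 4 fractions.

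**Figure D2:**
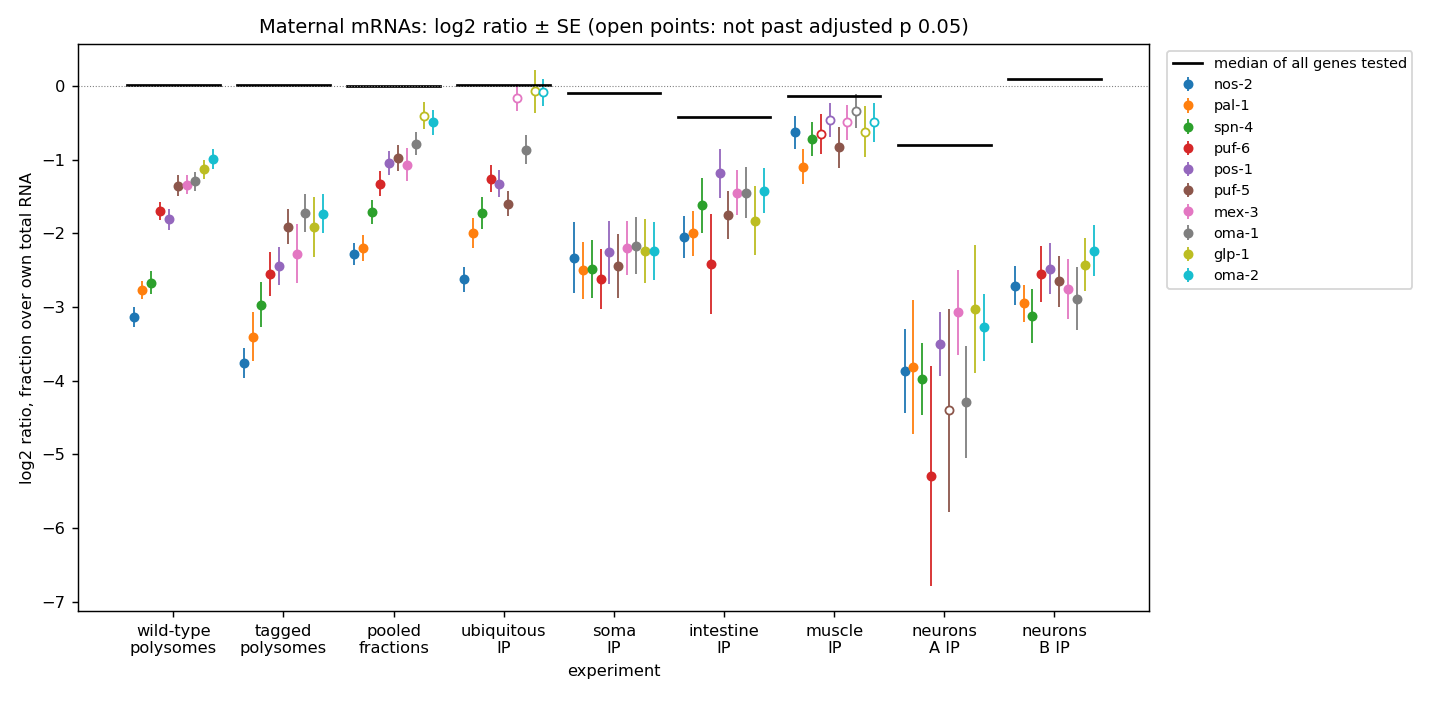
Log2 ratios of fraction over own total RNA for the 10 mRNAs in 9 experiments (points, with SE from limma as bars; black lines, median of all genes tested; open points did not pass the threshold). The 10 spread over 2.15 log2 units in wild-type polysomes and 2.55 in the ubiquitous IP, and over 0.45 in the soma IP, the narrowest of the 9. In the other somatic IPs they spread over 2.27 (neurons A), 1.23 (intestine), 0.89 (neurons B) and 0.76 (muscle).

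The polysome and pooled fraction ratios of the same strain were then compared directly, which asks whether the 10 mRNAs were lower on polysomes than on all ribosome-bound material. In the interaction test 3 of the 10 were lower in tagged polysomes than in pooled fractions, nos-2, pos-1 and oma-2, against 6.01% of all genes (0.504% were higher). All 10 differences were negative, between -1.51 for glp-1 and -0.94 for puf-5, with a median of -1.23 beside -0.02 over all genes. For nos-2 the log2 ratio was -3.77 in tagged polysomes and -2.28 in pooled fractions, a difference of -1.48 (SE 0.25, adjusted p = 0.00868). The zinc-finger messages pos-1 and oma-2 differed by -1.40 (adjusted p = 0.0218) and -1.24 (adjusted p = 0.0343). The other 7 had adjusted p from 0.0528 (spn-4) to 0.155 (mex-3), each with a 95% interval below 0. The germline markers as a list also took a lower share in tagged polysomes, 0.321 to 0.623% against 1.48 to 1.60% in their total RNA. In pooled fractions the list took 1.04 to 1.38%, against 1.64 to 1.81% in their total RNA. The part of this germline shift in the differences of the 10 was not tested.

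The count of 3 depended on single libraries. It was 6 without tagged polysomes replicate 1, where the differences ran from -1.28 for nos-2 to -0.63 for oma-1 with a median of -0.86, against 8.32% of all genes lower. It was 9 without replicate 2 and 5 without replicate 3. It was 1, which was nos-2, without pooled fractions replicate 1 or without pooled fractions total RNA replicate 1 or 2. The same held without tagged polysomes total RNA replicate 3. Except for the refit without tagged polysomes replicate 1, shares of all genes called in these refits are not given. Their counts therefore show only how the calls moved, and not a change particular to these mRNAs.

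Compared with the ubiquitous IP, 8 of the 10 mRNAs had a lower ratio in tagged polysomes, against 22.5% of all genes (median difference -1.27 beside 0.02 over all genes). The largest differences were those of mex-3 (-2.12, SE 0.48, adjusted p = 0.00357), glp-1 (-1.84, SE 0.56) and oma-2 (-1.64, SE 0.34), the 3 messages that overlapped with total RNA in the IP. Not called were oma-1 (-0.86, 95% interval -1.60 to -0.12, adjusted p = 0.0563) and puf-5 (-0.31, 95% interval -0.93 to 0.31). The count was also 8 without tagged polysomes replicate 1, against 23.0% of all genes lower, with differences from -1.58 for mex-3 to -0.08 for puf-5 and a median of -0.93. As a list the germline markers took 0.297 to 0.367% in the ubiquitous IP, against 0.346 to 0.580% in its total RNA. In tagged polysomes they took 0.321 to 0.623%, against 1.48 to 1.60%, and their part in these differences was not tested. The total RNA of both experiments differed too. Relative to nos-2, the median in ubiquitous IP total RNA was 0.732 for mex-3, 0.289 for glp-1 and 0.831 for oma-2. In tagged polysomes total RNA it was 3.34, 2.68 and 3.48, and the other members also stood higher there. The part of total RNA in these differences was not tested.

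Pooled fractions and the ubiquitous IP, both of which keep single ribosomes, differed for 1 of the 10, against 11.8% of all genes lower. This was mex-3, with log2 ratios of -1.07 in pooled fractions and -0.16 in the ubiquitous IP (difference -0.91, SE 0.32, adjusted p = 0.0487). The call was lost with equal-sum scaling (adjusted p = 0.0741), without a filter on low values (adjusted p = 0.0509) and without 1 library in 9 of 12 cases. The 10 differences ran from -0.91 to 0.62 with a median of -0.03, and 5 were negative. At the upper end was puf-5 (95% interval 0.12 to 1.13, adjusted p = 0.0683). The tagged polysome and pooled fraction comparisons with the ubiquitous IP share the IP libraries and are not independent.

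**Figure D3:**
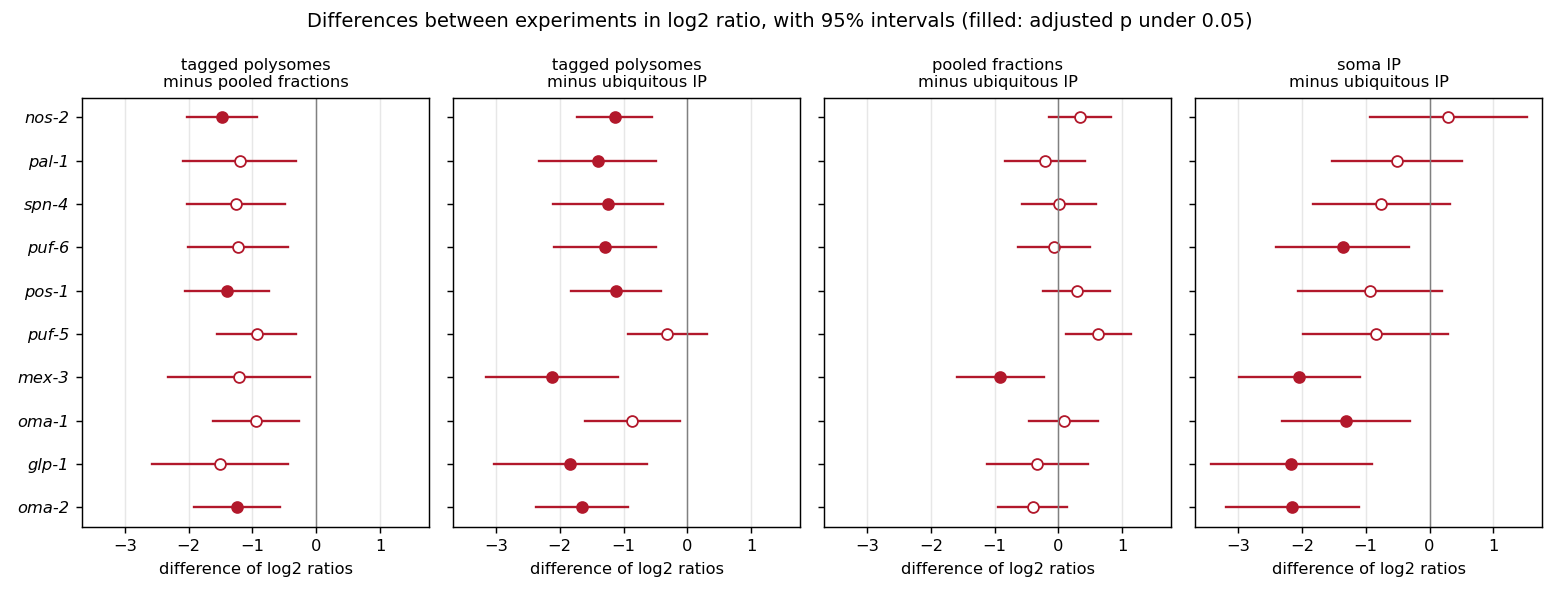
Differences between experiments in the log2 ratios of the 10 mRNAs (points, with 95% intervals; filled points had adjusted p under 0.05 in limma's interaction test over 12 libraries). Tagged polysomes lie below pooled fractions for all 10, and the soma IP lies below the ubiquitous IP for 9 of 10.

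The IPs from somatic tissues ask how far germline messages were removed when the tagged ribosomes are made outside the germline. In the soma IP all 10 mRNAs were lower than in soma total RNA, against 32.7% of all genes, and all 10 had every IP library below every total RNA library, against 34% of genes. Their median log2 ratio was -2.30, beside -0.09 over all genes, and their ratios lay within 0.45 of one another, from -2.62 for puf-6 to -2.17 for oma-1. The message nos-2 had 961, 3024 and 1517 normalized counts in the soma IP, against 5152, 7024 and 15531 in soma total RNA (log2 -2.33, SE 0.48). For glp-1 the counts were 1139.8, 2049 and 1602, against 5484, 4745 and 15099.5 in total RNA (log2 -2.24, SE 0.43). So the messages at opposite ends of the polysome order had ratios in the soma IP that differed by less than their errors. Of the 45 pairs of mRNAs, 5 had fraction and total RNA libraries fully apart in the soma IP, while 39 did in the ubiquitous IP, 38 in pooled fractions, 33 in tagged polysomes (40 without replicate 1) and 39 in wild-type polysomes.

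Between the soma IP and the ubiquitous IP, 5 of the 10 had a lower ratio in the soma IP, against 29.1% of all genes, with 20.2% higher (median difference -1.12 beside -0.22). They were glp-1 (-2.16, SE 0.59, adjusted p = 0.0092), oma-2 (-2.15, SE 0.49), mex-3 (-2.04, SE 0.44), puf-6 (-1.36) and oma-1 (-1.30). For nos-2 the ratio was -2.33 in the soma IP and -2.62 in the ubiquitous IP, a difference of 0.29 (95% interval -0.93 to 1.52, adjusted p = 0.683). The count was 3 without soma IP replicate 1 or soma total RNA replicate 3. It was also 3 without ubiquitous IP replicate 2 or 3 or ubiquitous IP total RNA replicate 3. The calls lost in these refits were those of puf-6 and oma-1. Shares of all genes called in these refits are not given, so the count shows only how the calls moved. The germline markers moved with this comparison, 10 of 11 being lower in the soma IP (median difference -1.94), and their part in the result was not tested. Relative to nos-2, the median in ubiquitous IP total RNA was 0.289 for glp-1, 0.831 for oma-2 and 0.732 for mex-3. In soma total RNA it was 0.972, 2.125 and 1.369, and the other members also stood higher there. The part of total RNA in the result was not tested either.

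In the single-tissue IPs the direction was again the same for all 10 mRNAs. In the neurons B IP 10 of 10 were lower, against 32.6% of all genes (median log2 ratio -2.68 beside 0.10 over all genes), with spn-4 at 9631, 4237 and 4631 normalized counts in the IP and 65542, 38722 and 49629.7 in neurons B total RNA (log2 -3.13, SE 0.36). In the neurons A IP, made with another strain and the same promoter, 9 of 10 were lower, against 12% of all genes (median -3.84 beside -0.80), and all 10 had every IP library below total RNA, against 31.7% of genes. The lowest ratio there was that of puf-6, with 114.7, 187 and 2.83 in the IP and 1815, 3398 and 806 in neurons A total RNA (log2 -5.29, SE 1.49). Its low library, replicate 3, is the one with the most genes at 0. Without it all 10 were called at a median of -3.28, against 25.7% of all genes lower, and the lowest ratio was that of spn-4 (-3.79), with puf-6 at -3.54 (adjusted p = 0.0055) and puf-5 at -3.0 (adjusted p = 0.0395). The message puf-5 was not called (log2 -4.40, SE 1.38, adjusted p = 0.0531), but was with the replicate number as a block (adjusted p = 0.00117), and in this experiment same-numbered libraries deviated together. It was also called with a pseudocount of 5 (adjusted p = 0.0426). The glp-1 call (adjusted p = 0.0413) was lost with equal-sum scaling (adjusted p = 0.0507). The count was 5 without total RNA replicate 1 and 6 without total RNA replicate 2 or IP replicate 1. For these refits shares of all genes called are not given, so the counts show only how the calls moved.

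In the intestine IP all 10 were lower, against 9.61% of all genes lower and 17.8% higher (median log2 ratio -1.69 beside -0.42), from -2.41 for puf-6 to -1.18 for pos-1. The message glp-1 had 1385, 451 and 1186 normalized counts in the intestine IP, against 4059, 2209 and 3702 in intestine total RNA (log2 -1.83, SE 0.47). The count was 3 without intestine total RNA replicate 1 and 6 without replicate 2. For these refits shares of all genes called are not given, so the counts show only how the calls moved. Scaling to equal sums moved the median of the 10 to -2.88 and that of all genes to -1.65.

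In the muscle IP the ratios were nearest to 0. Of the 10, 4 were called lower, pal-1, puf-5, spn-4 and nos-2, against 13.1% of all genes (median -0.62 beside -0.14), and 3 had every IP library below total RNA, against 22.7% of genes. The message pal-1 had 3135, 2178 and 1736 normalized counts in the muscle IP, against 4790.2, 5362 and 4516 in muscle total RNA (log2 -1.10, SE 0.24, adjusted p = 0.00433). For glp-1 the counts were 3990.1, 4223 and 3183, against 2980.2, 8807 and 7387 in total RNA (log2 -0.62, 95% interval -1.39 to 0.16). The low first total RNA library of glp-1 overlapped with the IP, and without it all 10 mRNAs were called. The nos-2 call (adjusted p = 0.0494) was lost with a pseudocount of 0.5 (adjusted p = 0.0501) and with no filter on low values (adjusted p = 0.0563). The count was 1 without muscle IP replicate 2 or 3 or total RNA replicate 2 or 3. For the refits without a library shares of all genes called are not given, so the counts show only how the calls moved. With equal-sum scaling all 10 were called at a median of -2.02, while the median of all genes moved to -1.53, so the distance of the 10 from all genes was -0.48 under both scalings. Germline markers summed to between 0.126 and 0.246% of the library in the muscle IP, against 0.508 to 0.961% in muscle total RNA, with 6 of 11 lower, and their part in the ratios was not tested.

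A ratio of 2 messages inside a library shows how the composition of the group varied between experiments, since the scaling of the library drops out. In the gradient fractions glp-1 stood at 5.97 to 14.4 times nos-2, against 2.22 to 2.75 times in their total RNA. In the ubiquitous IP libraries the glp-1 count was 1.08 to 1.69 times that of nos-2, against 0.135 to 0.351 times in ubiquitous IP total RNA. For oma-2 the ratio to nos-2 was 10.5 to 17.9 in gradient fractions, against 3.16 to 4.24 in their total RNA, and it was 4.08 to 4.58 in the ubiquitous IP, against 0.550 to 0.902 in ubiquitous IP total RNA. In all 4 experiments the fraction had the higher ratio, while total RNA of the ubiquitous IP and of the gradients did not overlap. The MSD470 strain gave both kinds of total RNA, and how their libraries were prepared is not given in the sources used here.

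**Figure D4:**
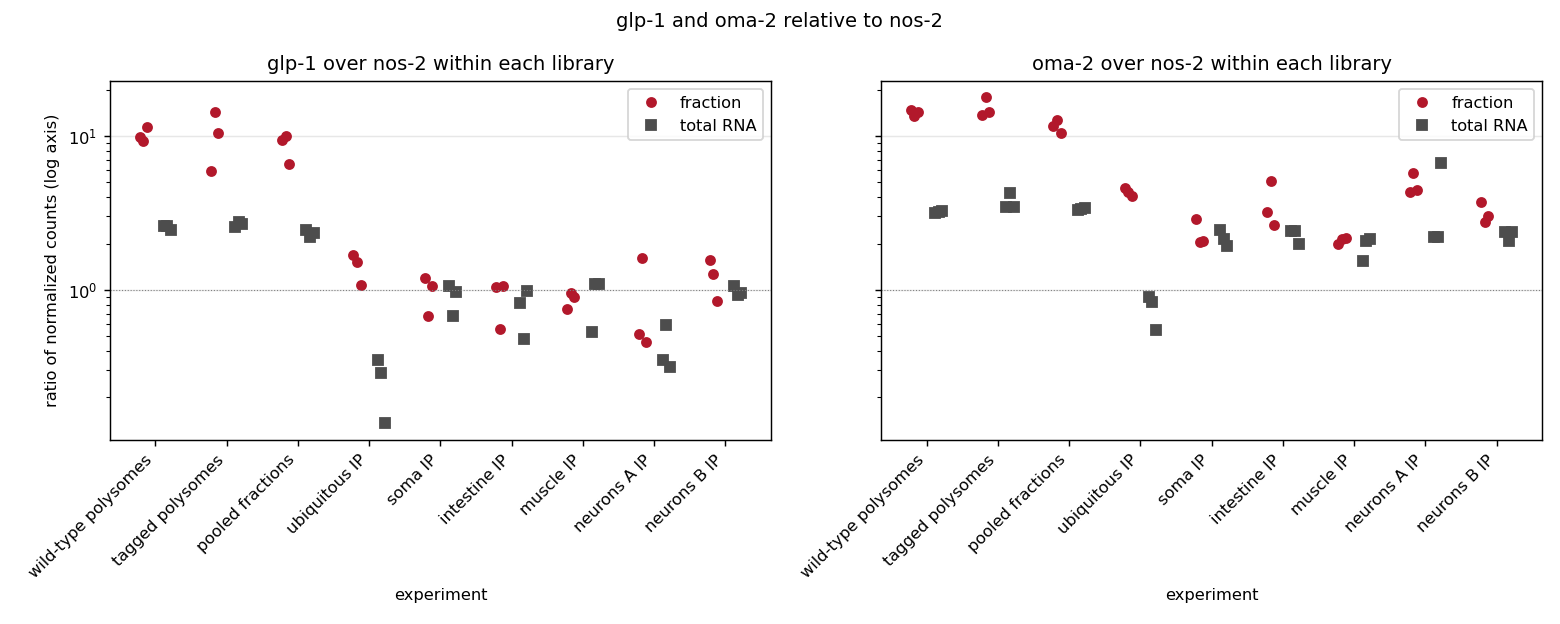
Count of glp-1 (left) and oma-2 (right) divided by that of nos-2 inside each library (log axis; circles, fraction; squares, total RNA; n = 3 each). In gradient experiments and the ubiquitous IP the fraction lies above its total RNA, and the lowest ratio of glp-1, 0.135, is in ubiquitous IP total RNA.

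Other germline genes give the setting of these ratios. Among 29 measured of 30 listed RNA-binding regulators and deadenylation factors, the proteins that act on such 3′ UTRs and their partners, 20 were lower and 1 was higher in wild-type polysomes (median -0.89), where 33.9% of all genes were lower and 33.6% higher. Values of the most abundant were -1.39 for gld-1 (SE 0.14, adjusted p = 4.4e-07), which encodes the repressor, and -0.35 for the RNA helicase gene cgh-1 (adjusted p = 0.054, not called). The germ granule gene car-1 was the 1 that was higher (0.70, adjusted p = 0.000704), and the eIF4E-binding factor gene ifet-1 was at 0.08 (adjusted p = 0.635, not called). There were 15 lower and 3 higher in the ubiquitous IP (median -0.61), with gld-1 at -0.55 (adjusted p = 0.0537, not called) and cgh-1 at -1.25. Of all genes, 20.4% were lower and 16.9% higher in this IP.

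Of 17 other maternal or germline mRNAs with known 3′ UTR control, all 17 were lower in wild-type polysomes (median -1.35), all 17 in tagged polysomes (-1.74) and all 17 in pooled fractions (-0.83). Of all genes tested, 33.9, 30.3 and 23.1% were lower in these fractions, in the same order. The yolk receptor gene rme-2 had a log2 ratio of -1.10 in wild-type polysomes and the Wnt gene mom-2 -2.20. The oocyte surface gene egg-1 was at -1.03 and the endoderm and mesoderm regulator skn-1, which is also expressed in the intestine and neurons, at -0.52. Lower in the ubiquitous IP were 11 of the 17 (median -0.82), against 20.4% of all genes. There mom-2 was lower (-1.66), and skn-1 was not called (0.24, adjusted p = 0.301).

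Germline genes chosen for other roles were counted in the same way. Of all genes, 33.9% were lower and 33.6% higher in wild-type polysomes, and 20.4% lower and 16.9% higher in the ubiquitous IP. Of 25 genes of the meiotic chromosome axis and recombination 22 were lower and 1 higher (median -0.96), among them the axis genes him-3 (-0.52) and htp-3 (-0.86) and the synaptonemal complex gene syp-4 (-0.37). The polo-like kinase gene plk-2 was at -0.21 (adjusted p = 0.128, not called). In the ubiquitous IP 10 of these 25 were lower and 2 higher (median -0.36), and syp-4 was one of those higher (0.62, adjusted p = 0.013). Of 12 eggshell and oocyte surface genes 10 were lower and 2 higher in wild-type polysomes (median -1.17). The chondroitin proteoglycan genes cpg-1 (-0.74) and cpg-2 (-0.93) and the chitin-binding gene cbd-1 (-1.16) were lower, and the vitelline layer gene perm-2 was higher (1.80, SE 0.16). Sperm markers moved the other way, with 8 of 11 higher in wild-type polysomes (median 1.26) and none lower, where 33.6% of all genes were higher. Since the lists were chosen with results known, these counts set the 10 mRNAs beside other germline genes without a test of a difference between lists. The germline markers share gld-1, rme-2, him-3, syp-1, htp-3, cpg-1, cpg-2 and cbd-1 with these lists. Marker counts and list counts are therefore not independent.

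**Figure D5:**
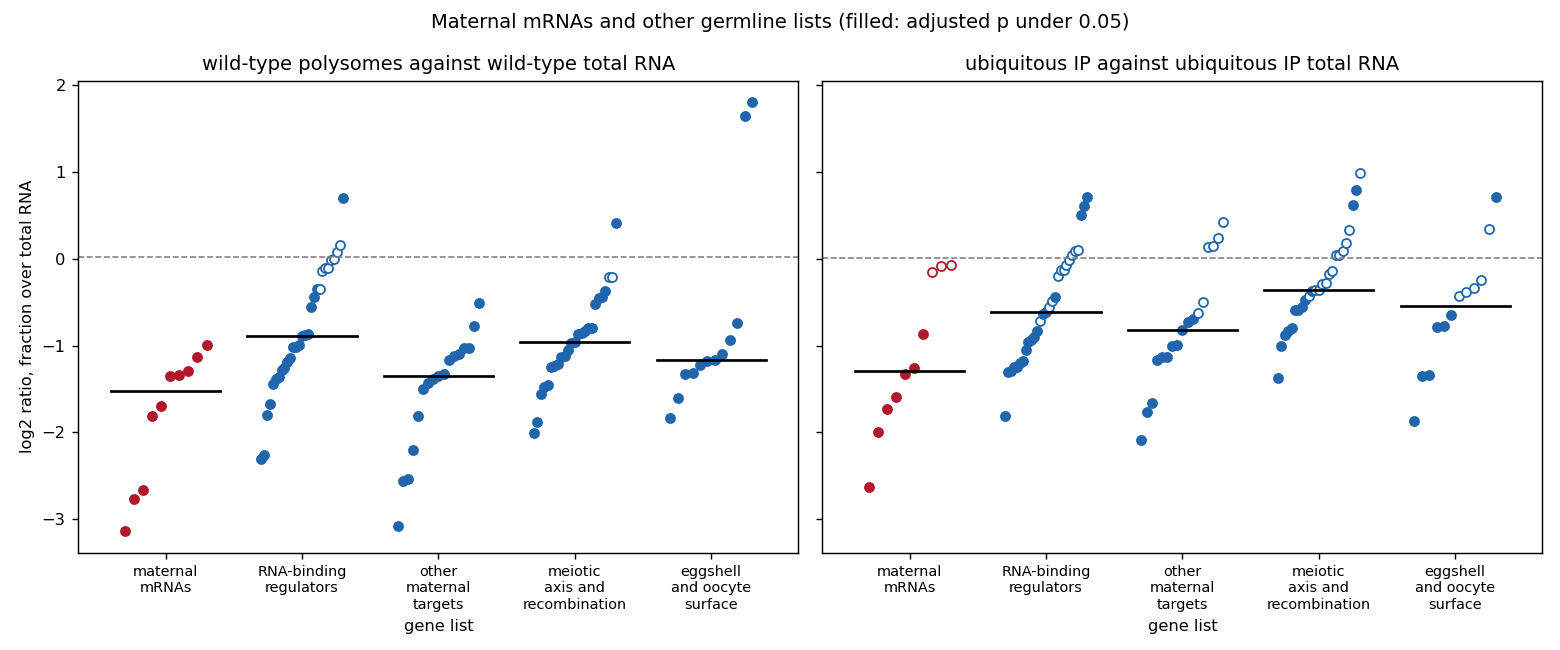
Log2 ratios (fraction over total RNA) for the 10 maternal mRNAs (red) and 4 other germline lists (blue) in wild-type polysomes and in the ubiquitous IP; each point is a gene, black lines are list medians, the dashed line is the median of all genes, and open points did not pass the threshold. In wild-type polysomes the list medians lie between -1.53 and -0.89.

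The genes whose log2 ratios over the 9 experiments lay nearest to the mean of the 10 mRNAs, by root mean square difference among 11771 genes tested in all 9, were clec-88 (0.10), clec-87 (0.18), snf-6 (0.18), pigv-1 (0.21), T24D1.3 (0.23) and cyb-3 (0.24). The gene clec-88 (WBGene00019606) had log2 ratios of -1.76 in wild-type polysomes, -1.14 in the ubiquitous IP and -2.42 in the soma IP. The B3 cyclin gene cyb-3 had -1.92, -1.65 and -2.53 in the same fractions. Of the 10 themselves pos-1 was nearest to the group's mean (0.245, place 7 of the 11771 genes), and nos-2 farthest (0.866, place 839). Many genes outside the group thus lay nearer to its mean than some members did, and the mean profile was not particular to the 10. Without tagged polysomes replicate 1 and neurons A IP replicate 3, also chosen after seeing the data, clec-88 was again the nearest (0.067) and 3 of the 6 genes (clec-88, clec-87 and pigv-1) were again among the first 6.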

How the data were processed

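The tools kallisto 0.46.1 and DESeq2 1.30.1, R 4.0.4 and the build ce11 are named in the submitters' processing notes. The deposited signal values are normalized counts per gene, scaled by the authors within each table. The authors also deposited per gene a log2 fold change with its SE, a test statistic (score), p-values and their −log10, used only as an alternative. Between 5.48 and 46.8% of a library's values were whole multiples of its estimated single-count size. Values of 0 pass this check, and large values can miss it because that size was rounded. The check therefore does not show whether whole reads could be recovered. The estimated depths rest on the same size.

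Each ratio was tested with limma 3.58.1 in R 4.3.3 on log2(normalized count + 1), for genes averaging 10 or more, two-sided, with Benjamini-Hochberg adjustment over all genes tested and a threshold of 0.05. A count is therefore described on this scale, which understates changes of low genes. Differences between experiments are interaction terms over 12 libraries. The script was tested on simulated data. For wild-type polysomes 63.4% of 93 genes changed by 1 log2 unit and 91.6% of 107 changed by 2 were recovered, and for the intestine IP 0% of either. For the neurons A IP it was also 0% of either, and for the soma IP 0% at 1 log2 unit and 30.8% at 2. Only a small set of genes was changed in the simulation, while many more were called in the real data. The adjustment over all genes was thus stricter there, and these shares do not give the recovery in the real data. In 4 of the 5 differences between experiments the share of calls that were false was above the threshold: it was 10.4% for tagged polysomes against pooled fractions, 12% for tagged polysomes against the ubiquitous IP and 13.2% for the soma IP against the ubiquitous IP (14481, 13662 and 13764 genes). It was 8.6% for wild-type against tagged polysomes (14372 genes) and 4.2% for pooled fractions against the ubiquitous IP (13685 genes).

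Alternatives were a pseudocount of 0.5 or 5, no filter, equal-sum scaling, leaving out each library, replicate number as a block, and the authors' test. Same-numbered libraries were taken to deviate together in 3 experiments (intestine, neurons A and ubiquitous IP, lowest r from 0.187 to 0.313). In the other 6 the lowest r was -0.347 to 0.0811. Among these the soma IP had r of 0.51, 0.0811 and 0.321 for replicates 1, 2 and 3. In the soma and neurons B IPs every library also matched best with its own number. A low r does not show that libraries were unpaired. The members and gene lists were chosen with earlier results of these data known. Named were all members, the 4 most abundant genes of each list, and the 6 genes nearest to the members' mean profile. Transcript lengths and positions are from Ensembl release 115. Software was Python 3.11.15 with numpy 2.4.6, pandas 2.3.3, scipy 1.17.1 and matplotlib 3.10.9. The series' design text and the sample labels give different strains for the intestine IP, and the sample labels were followed. Sequences were not used here.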

Additional observations from a re-analysis of the deposited data

Results flagged for a closer look

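The ratio of fraction over total RNA differed between experiments, by limma's interaction test, for 3 of the 10 mRNAs between tagged polysomes and pooled fractions (nos-2, pos-1 and oma-2, all lower in tagged polysomes), where 6.01% of all genes were lower. Between tagged polysomes and the ubiquitous IP it differed for 8, lower in tagged polysomes, where 22.5% of all genes were lower. Between pooled fractions and the ubiquitous IP it differed for 1, mex-3, lower in pooled fractions, which is near the 11.8% of all genes that were lower. The mex-3 call was lost with equal-sum scaling, with no filter on low values and without 1 library in 9 of 12 cases. Between the soma IP and the ubiquitous IP it differed for 5 (glp-1, oma-2, mex-3, puf-6 and oma-1), lower in the soma IP, where 29.1% of all genes were lower.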

How the results depend on the processing

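All 10 mRNAs kept a negative log2 ratio in wild-type polysomes, tagged polysomes, pooled fractions and the 5 IPs from somatic tissues under every alternative. With equal-sum scaling the count of mRNAs lower in the muscle IP was 10, while the median of all genes there moved from -0.14 to -1.53. This count therefore does not set the 10 apart from other genes. The count of mRNAs lower in pooled fractions than in the ubiquitous IP was 0 with equal-sum scaling and also with no filter. Equal-sum scaling turned the ubiquitous IP log2 ratios of glp-1 (0.17), mex-3 (0.090) and oma-2 (0.16), and the differences of spn-4 (-0.23) and oma-1 (-0.16) between pooled fractions and the ubiquitous IP; scaling moved the median of all genes there by 0.25 and -0.24.

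Leaving out 1 library at a time gave counts of mRNAs lower of 3 to 10 in the intestine IP, 1 to 10 in the muscle IP, 5 to 10 in the neurons A IP, 7 to 9 in the ubiquitous IP and 8 to 10 in pooled fractions, and 10 in the neurons B IP, soma IP, tagged polysomes and wild-type polysomes. For differences the counts were 1 to 9 between tagged polysomes and pooled fractions, 7 to 9 between tagged polysomes and the ubiquitous IP, and 3 to 7 between the soma IP and the ubiquitous IP. Between pooled fractions and the ubiquitous IP, 0 to 1 were lower and 0 to 1 higher (puf-5, without ubiquitous IP total RNA replicate 3), and between wild-type and tagged polysomes the count was 0 throughout. Signs turned in the ubiquitous IP for glp-1 (-0.44 to 0.15), mex-3 (-0.34 to 0.015) and oma-2 (-0.26 to 0.079). They turned between pooled fractions and the ubiquitous IP for pal-1 (-0.39 to 0.018), glp-1 (-0.55 to 0.038), spn-4 (-0.17 to 0.25), oma-1 (-0.067 to 0.31) and puf-6 (-0.24 to 0.11). They also turned for spn-4 between wild-type and tagged polysomes (-0.080 to 0.51) and for nos-2 between the soma IP and the ubiquitous IP (-0.15 to 0.75). None of these members had been called. Except where stated in the Results, shares of all genes in these refits are not given, so the counts show only how the calls moved.

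With replicate number as a block, 1 mRNA was lower in the muscle IP (pal-1), oma-2 was not called in pooled fractions (adjusted p = 0.0878) or between tagged polysomes and pooled fractions (0.0555), and oma-1 was called between tagged polysomes and the ubiquitous IP (0.0372). In these experiments, other than the ubiquitous IP, same-numbered libraries did not all deviate together (r of 0.0885, 0.226 and -0.0021 in the muscle IP). Whether they are pairs is not stated in the labels. In the intestine and ubiquitous IPs, where same-numbered libraries deviated together, the block changed no call. In the authors' deposited table nos-2 was not called in the muscle IP (adjusted p = 0.0621) and puf-5 was called in the neurons A IP (9.04e-15), and the other 88 calls were the same. The cause of these changes was not tested.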

Other observations

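The 10 mRNAs together made up a lower percentage of the summed normalized counts in every fraction than in its total RNA. In tagged polysomes they made up 0.113 ± 0.0506%, against 0.579 ± 0.0378% in tagged polysomes total RNA, and in pooled fractions 0.307 ± 0.0422%, against 0.619 ± 0.0178% in pooled fractions total RNA (SD, n = 3 each). In the ubiquitous IP the percentage was 0.0995 ± 0.0116, against 0.213 ± 0.0747 in ubiquitous IP total RNA. In the soma IP it was 0.0763 ± 0.0286, against 0.365 ± 0.154 in soma total RNA, and in the neurons A IP 0.0198 ± 0.0125, against 0.320 ± 0.138 in neurons A total RNA. Total RNA of the ubiquitous IP had a lower mean percentage than the other 8 kinds of total RNA, although these come from separate tables and no test was made.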
